A study of Mus musculus with 6 samples.

Results

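The mitochondrial ribosome reads the few mRNAs that mitochondrial DNA encodes, all of them for subunits of the respiratory chain and ATP synthase. Its rRNAs come from mitochondrial DNA, whereas its proteins are encoded in the nucleus, made in the cytosol and imported. Large-subunit genes are named *Mrpl* and small-subunit genes *Mrps*. Many encode homologues of bacterial ribosomal proteins, and others are found in mitochondria alone. The genes described here are the protein-coding genes whose mouse symbol is *Mrpl* or *Mrps* followed by a number. Of 22380 gene identifiers in each library, 77 met this rule, 48 of them *Mrpl* and 29 *Mrps* genes. The annotation also holds *Mrpl33*, which was not analysed here.

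The TET enzymes (TET1, TET2 and TET3) oxidise the methyl group of 5-methylcytosine in DNA, and the comparison asks how the transcriptome differs soon after all of them are lost. RNA came from mouse embryonic stem cells (mESC) grown in 2i medium, with inhibitors of GSK3 and MEK, on fibroblast feeders. Each group held 3 lines, each derived from a different embryo on a C57BL/6 background. *Ctrl* embryos came from matings with wild-type C57BL/6J mice, whereas the floxed *Tet* alleles were made in C57BL/6NTac stem cells. A difference of substrain between the groups was not tested and cannot be told apart from TET loss. *Ctrl* lines were CreERT2 wt/ki with the Gt(ROSA)26Sor<tm1Ytchn>/J reporter wt/ki, and *Tet iTKO* lines carried the same alleles and Tet1/2/3 fl/fl. In this reporter, Cre switches on a nuclear green fluorescent protein, and the Cre is driven by the ubiquitin C promoter and enters the nucleus upon 4-hydroxytamoxifen. All 6 lines, *Ctrl* included, received 1 µM 4-hydroxytamoxifen (tamoxifen in the labels) for 2.5 days and were kept for 4 more days, to day 6.5. Live CD326+ GFP+ Thy1.2- cells were sorted, where CD326 (EpCAM) marks mESC and Thy1.2 fibroblasts, and Smart-Seq2 libraries were made.

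The normalized counts of a library added up to 3964824 at the lowest and 4219665 at the highest. They are read counts divided by a size factor for each library, so the reads behind them are not given by the values. All 6 lines expressed the mESC marker *Pou5f1*, at 4318 to 5804. *Tet3* was at 28, 13 and 13 in *Ctrl* and at 10, 3 and 3 in *Tet iTKO* lines, while *Tet1* was listed at 682 to 716 in *Ctrl* and at 753 to 895 in *Tet iTKO* lines. Counts over whole genes also take reads from exons that Cre does not remove, so they do not check the deletion. The 9 mESC markers summed to 22432 to 23008 in *Ctrl* and to 18802 to 19749 in *Tet iTKO* lines, and the 10 fibroblast markers to 326 to 340 and to 528 to 602. The mESC markers went both ways, with 4 lower and 3 higher. *Dppa5a* alone went from 11578, 11088 and 11011 to 8136, 8809 and 8774, while *Epcam*, which encodes the sorted CD326, *Esrrb* and *Klf4* rose (log2 fold changes of 0.45, 0.29 and 0.32). *Dppa5a* turned to 0.12 when corrected for GC content and transcript length. Of the fibroblast markers, 5 were abundant enough to test, of which *Col1a1*, *Col1a2* and *Col3a1* rose. *Thy1* was at 30, 46 and 41 against 47, 35 and 23, and *Postn* was listed at 0 to 3 in every line. The part of these shifts in the results below was not tested. In bulk RNA, fewer cells of a type and less RNA per cell cannot be told apart.

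Most genes for mitochondrial ribosomal proteins were lower in *Tet iTKO* than in *Ctrl* mESC. Added together, they came to 42870, 43442 and 43643 normalized counts for *Ctrl* lines 1 to 3 and to 33537, 34828 and 34553 for *Tet iTKO* lines 1 to 3, so the groups did not overlap and the *Tet iTKO* mean was 79.2% of the *Ctrl* mean. As a share of all counts the genes took 1.02% to 1.03% in *Ctrl* and 0.846% to 0.878% in *Tet iTKO* lines. Of the 77 genes, 76 reached a mean of 10 normalized counts over the lines and were tested. A gene counts as lower or higher at an adjusted p under 0.05 from limma on log2(normalized count + 1), over all 10524 genes tested. By this rule 58 genes fell, 1 rose and 17 were not called. Among all genes tested, 18.4% were lower and 16.4% higher. The median log2 fold change of the 76 genes was -0.37 (quartiles -0.52 and -0.25), beside 0.01 over all genes tested, and the middle gene stood at 77.3% of its *Ctrl* mean. The sizes were moderate throughout, since the 58 genes that fell kept between 57.1% and 87.8% of their *Ctrl* level. All *Tet iTKO* lines lay below all *Ctrl* lines for 60 of the 76 genes and above them for 2, against 22.9% and 21.2% of all genes. Without the trend of variance on expression in limma, 33 genes were lower and 0 higher, and over all genes 11.6% and 10.2%.

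**Figure D1:**
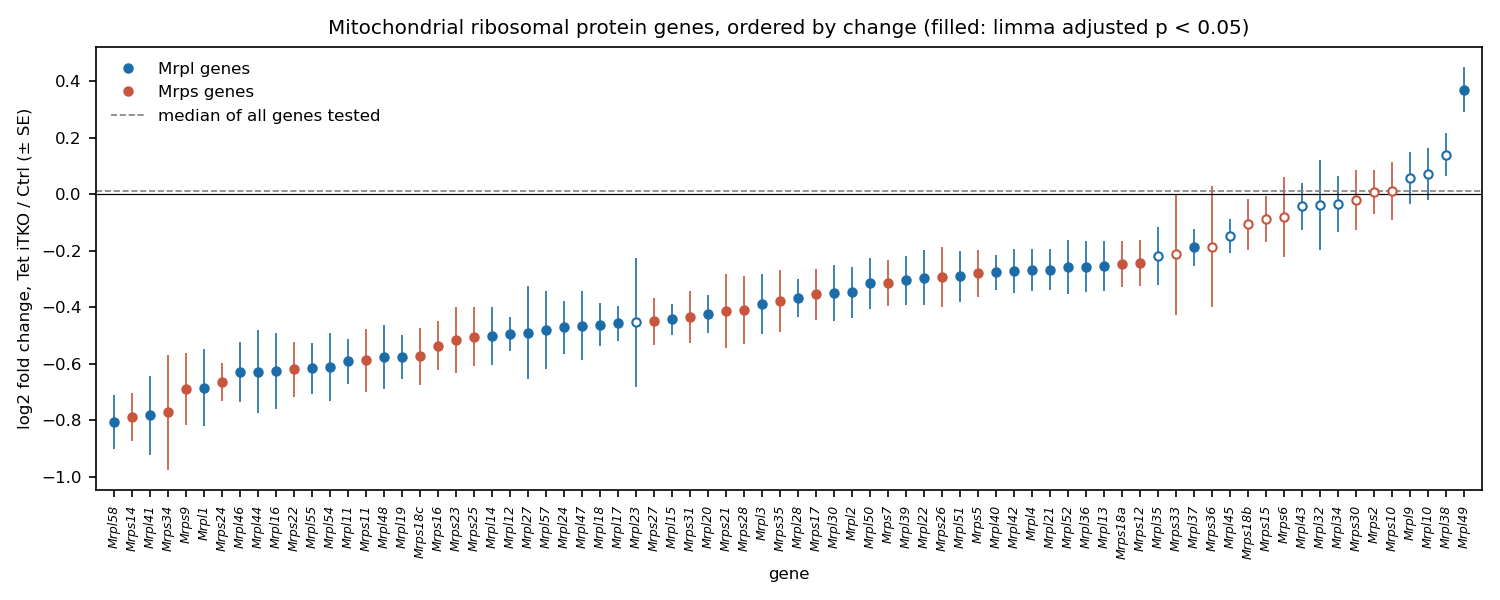
Log2 fold change (*Tet iTKO* over *Ctrl*, vertical axis, with its standard error) of the 76 tested genes, ordered along the horizontal axis, with 3 lines per group. Filled points passed the limma test, and the dashed line marks the median of all genes tested, at 0.01. The points run from -0.81 (*Mrpl58*) to 0.37 (*Mrpl49*), with large-subunit and small-subunit genes interspersed.

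Both subunits took part. Of 47 *Mrpl* genes tested, 37 fell and 1 rose, with a median log2 fold change of -0.37. Of 29 *Mrps* genes, 21 fell and 0 rose, with a median of -0.38. Genes with a bacterial homologue fell in 33 of 43 cases and those for proteins specific to mitochondria in 21 of 27, with median log2 fold changes of -0.39 and -0.32. No difference between these classes was tested.

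The largest fall was that of *Mrpl58* (ENSMUSG00000018858.9, chromosome 11), which encodes a peptidyl-tRNA hydrolase built into the large subunit that frees stalled ribosomes. Its normalized count was 458, 498 and 507 in *Ctrl* and 279, 292 and 264 in *Tet iTKO* lines. The groups were far apart, with a log2 fold change of -0.81 ± 0.10 (SE, n = 3 lines per group, limma adjusted p = 2.06e-08). *Mrps14* (ENSMUSG00000058267.7, chromosome 1), a homologue of bacterial S14 in the head of the small subunit, read 808, 719 and 723 against 436, 474 and 392. Its log2 fold change was -0.79 ± 0.09 (limma adjusted p = 2.28e-09). *Mrpl41*, for a mitochondria-specific large-subunit protein, went from 236, 204 and 276 to 142, 124 and 147 (log2 fold change -0.78 ± 0.14). *Mrps34*, for a mitochondria-specific small-subunit protein, had the lowest counts of the 8 largest falls, with 115, 90 and 131 against 72, 57 and 65. Its standard error on the log2 scale was accordingly wide (-0.77 ± 0.20, limma adjusted p = 0.00291).

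The next falls were those of *Mrps9* (log2 fold change -0.69 ± 0.13) and *Mrpl1* (-0.68 ± 0.14), homologues of bacterial S9 and L1. *Mrps9* stood at 293, 256 and 298 in *Ctrl* and at 201, 175 and 150 in *Tet iTKO* lines. *Mrpl1* stood at 237, 219 and 203 and at 138, 147 and 124. *Mrps24*, a homologue of bacterial S3 at the entry of the mRNA channel, had the smallest standard error of the 8 largest falls, with 1156, 1124 and 1101 against 710, 733 and 688. Its adjusted p was the smallest of all 76 genes (log2 fold change -0.67 ± 0.07, limma adjusted p = 7.55e-10). *Mrpl46*, for a mitochondria-specific protein of the central protuberance, read 361, 415 and 428 against 288, 250 and 240 (-0.63 ± 0.11). The rule that chose these 8 genes required groups that do not overlap. Their call held with any single line left out (highest limma adjusted p = 0.0279, for *Mrps34*).

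The only gene that rose was *Mrpl49* (ENSMUSG00000007338.8, chromosome 19), for a mitochondria-specific large-subunit protein. It was at 670, 608 and 572 in *Ctrl* and at 721, 854 and 818 in *Tet iTKO* lines, with the lowest *Tet iTKO* line close above the highest *Ctrl* line. The log2 fold change was 0.37 ± 0.08 (limma adjusted p = 0.000365, or 0.0598 when limma takes no trend of variance). Its exons share 91 bases (4.9%) with the opposite-strand gene *Syvn1*, which was at 210 to 219 in *Ctrl* and 228 to 294 in *Tet iTKO* lines. *Mrpl38*, which encodes a protein of the central protuberance, was also above *Ctrl* in all 3 lines (650, 674 and 706 against 794, 728 and 717). It was not called (log2 fold change 0.14 ± 0.08, limma adjusted p = 0.148). At the bottom of the range *Mrpl53* was listed at 1, 2 and 2 and at 0, 4 and 0, and was not tested. In the annotation 88.0% of its exon bases also belong to *Gm42688* on the same strand.

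**Figure D2:**
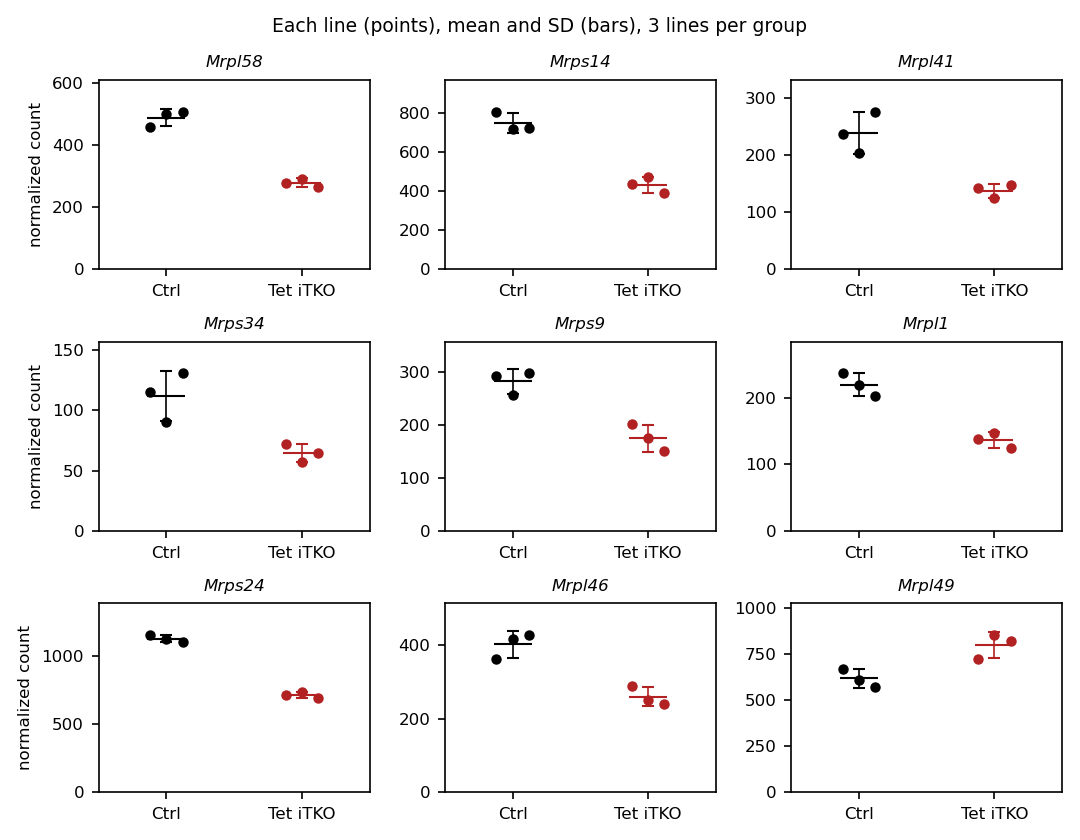
Normalized counts of the 8 genes with the largest falls and of *Mrpl49*, the only gene that rose, in each of the 3 *Ctrl* (black) and 3 *Tet iTKO* (red) lines. Points are lines, horizontal marks the mean and bars the SD, and each vertical axis starts at 0. The groups do not overlap in any panel, as the rule that chose the genes required.

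By place in the ribosome, the 7 small-subunit genes for proteins around the decoding site and the mRNA path held 6 that fell. Besides *Mrps9* and *Mrps24* these were *Mrps11*, *Mrps7*, *Mrps5* and *Mrps12*, with log2 fold changes of -0.59, -0.31, -0.28 and -0.24. *Mrps11* read 391, 299 and 360 against 237, 224 and 232. *Mrps12*, the homologue of the protein that carries streptomycin resistance in bacteria, was the exception in that its lines overlapped, at 762, 713 and 799 against 589, 728 and 611. *Mrps2* was level, at 629, 641 and 693 against 610, 676 and 687 (log2 fold change 0.01 ± 0.08, limma adjusted p = 0.961). The calls of the weakest falls rested on single lines. *Mrps12* had a limma adjusted p of 0.119 without *Tet iTKO* line 1, 0.0829 without *Ctrl* line 3 and 0.0895 without *Tet iTKO* line 3, and *Mrps5* one of 0.0592 without *Ctrl* line 2.

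Mammalian mitochondria have 3 homologues of bacterial S18, which occupy different places in the ribosome, and these differed in their values. *Mrps18c* was at 448, 382 and 432 against 278, 268 and 300, or 67.0% of *Ctrl* (log2 fold change -0.57 ± 0.10). *Mrps18a* was at 595, 709 and 693 against 558, 569 and 549 (-0.25 ± 0.08, limma adjusted p = 0.0159), and its adjusted p was 0.101 without *Ctrl* line 2, 0.0677 without *Ctrl* line 3 and 0.0553 without *Tet iTKO* line 3. *Mrps18b* was at 487, 636 and 520 against 494, 497 and 526 and was not called (-0.11 ± 0.09, limma adjusted p = 0.391). Once GC content and transcript length were corrected for, none of these 3 genes was called, with log2 fold changes of -0.05, 0.03 and 0.18.

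In the large subunit, the stalk recruits the translation factors. Its *Mrpl12* was among the more abundant genes of the family and fell from 1554, 1621 and 1736 to 1136, 1198 and 1149 (log2 fold change -0.49 ± 0.06, limma adjusted p = 3.74e-08). *Mrpl11*, at the stalk base, fell from 739, 865 and 823 to 544, 518 and 544 (-0.59 ± 0.08). *Mrpl10*, which anchors the stalk, read 524, 577 and 600 against 499, 640 and 660, so that its groups overlapped (0.07 ± 0.09, limma adjusted p = 0.581). Around the tunnel through which the new chain leaves, 4 of 6 genes fell (18.4% over all genes), namely *Mrpl17* (-0.46), *Mrpl24* (-0.47), *Mrpl47* (-0.47) and *Mrpl22* (-0.30). *Mrpl22* was not called without *Ctrl* line 1 (limma adjusted p = 0.0628), *Tet iTKO* line 1 (0.0703) or *Tet iTKO* line 2 (0.0614). *Mrpl45*, whose product binds the inner membrane, missed the threshold (1595, 1677 and 1541 against 1479, 1350 and 1514, limma adjusted p = 0.0512) and was called without *Ctrl* line 3 (0.0403) or *Tet iTKO* line 3 (0.0426). *Mrpl23* was too low for a firm value, at 66, 87 and 90 against 65, 65 and 47.

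The central protuberance, which in mitochondria is built around a structural tRNA, was represented by 7 genes. *Mrpl46*, *Mrpl48*, *Mrpl27*, *Mrpl18* and *Mrpl40* fell, with log2 fold changes of -0.63, -0.58, -0.49, -0.46 and -0.28. *Mrpl27* was not called without *Ctrl* line 3 (limma adjusted p = 0.113) or *Tet iTKO* line 1 (0.132). *Mrps30*, which despite its name belongs to the large subunit, was at 385, 319 and 345 against 396, 312 and 329 (-0.02 ± 0.11, limma adjusted p = 0.909), and *Mrpl38*, described above, was the other gene not called. All 4 genes for rRNA-binding proteins of the large-subunit core fell, namely *Mrpl16* (-0.62), *Mrpl3* (-0.39), *Mrpl2* (-0.35) and *Mrpl4* (-0.27). *Mrpl3* was not called without *Tet iTKO* line 3 (limma adjusted p = 0.072). Corrected for GC content and transcript length, as described below, several of these genes were no longer called. There remained 5 of 7 genes lower around the decoding site, 2 of 3 in the stalk, 2 of 6 at the exit tunnel, 2 of 7 in the central protuberance and 2 of 4 in the core, beside 13.3% of all genes. *Mrpl27*, *Mrpl18* and *Mrpl40* moved to -0.07, -0.17 and -0.08, *Mrpl24* to -0.20 and *Mrpl16* to -0.30, none of them called, and *Mrpl22* and *Mrps12* turned to 0.17 and 0.04.

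Per kilobase of transcript, the *Ctrl* levels of the tested genes ranged from 50.2 normalized counts (*Mrpl32*) to 1470 (*Mrpl20*), with a median of 327. The annotated transcripts on which this rests ran from 418 bases (*Mrpl52*) to 7300 (*Mrpl17*), with a median of 1324, and the coding lengths from 261 to 1326 bases, with a median of 594. All genes tested had medians of 2931 and 1365 bases, so the family is short. The most counted gene was *Mrpl15*, for a homologue of bacterial L15, at 2345, 2429 and 2369 against 1651, 1772 and 1836 (log2 fold change -0.44 ± 0.05). *Mrps36*, whose product is now assigned to the α-ketoglutarate dehydrogenase complex, had the lowest *Ctrl* mean of those tested, at 68, 75 and 96 against 65, 75 and 68, and was not called.

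Short genes were lower in *Tet iTKO* lines in general. Across all genes tested, log2 fold change and transcript length had a Spearman rho of 0.32, a description over genes that share the same 6 libraries. Over the 76 ribosomal protein genes rho was -0.05. Of other genes with transcripts up to 750 bases, 56.2% were lower, with a median log2 fold change of -0.42. The 11 family members of that length had a median of -0.30, with 8 lower, and so lay no further down than other short genes. Among transcripts over 4000 bases, 6.02% of other genes were lower, with a median of 0.17, while all 8 family members were lower, with a median of -0.45. Between 2500 and 4000 bases the medians were 0.05 for other genes and -0.47 for the 12 members. Weighted to the family's own spread over 6 length classes, 32.9% of other genes were lower, against 76.3% of the family. With classes of coding length the weighted share was 32.8%. Genes between the 5th and the 95th percentile of the members' transcript length, 7540 genes other than members, were lower in 21.6% of cases. Those of like coding length were lower in 28.3%. Both sets were still longer than the family, with medians of 2408 transcript bases and 786 coding bases.

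**Figure D3:**
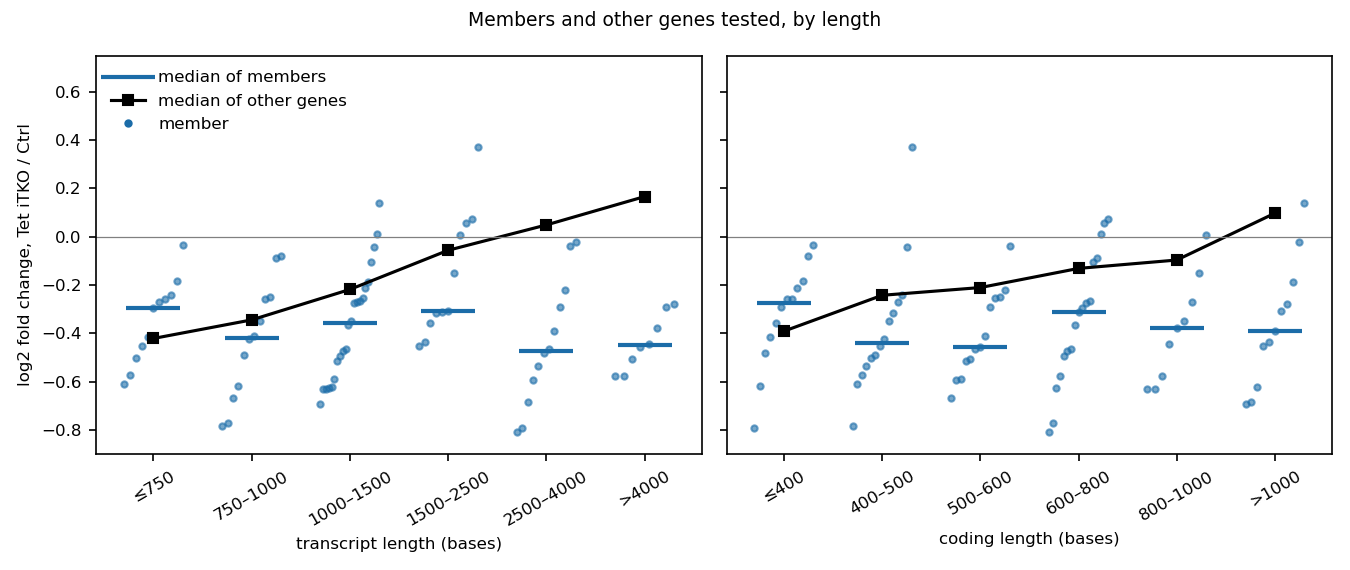
Log2 fold change (vertical axis) by annotated transcript length (left) or coding length (right), in classes of bases. Points are the 76 tested genes of the family, spread within a class by value, blue bars their median and black squares the median of all other genes tested. On the left, other genes climb from -0.42 to 0.17, while the family's medians stay between -0.47 and -0.30.

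When the trend on GC content and transcript length was removed in every library, 30 of the 76 genes remained lower and 5 were higher, with a median log2 fold change of -0.18. Over all genes, 13.3% were then lower and 12.5% higher. Those higher after the correction were *Mrpl49*, *Mrps10*, *Mrpl34*, *Mrps15* and *Mrpl42*. *Mrpl42* changed sides, from -0.27 to 0.25 (limma adjusted p = 0.0134 after correction). It was not called with coding length (0.045, limma adjusted p = 0.704) or with the length of its longest transcript (-0.12, limma adjusted p = 0.239). It has a transcript of 666 bases and read 713, 756 and 694 against 592, 570 and 630. With coding length in place of transcript length, 32 genes were lower and *Mrpl49* alone was higher, the median was -0.22, and 14.2% and 13.0% of all genes were lower and higher. A set of 23 genes was lower as deposited and after both corrections, among them *Mrpl58*, *Mrps14*, *Mrpl19*, *Mrpl11* and *Mrpl12*. *Mrpl19*, for a homologue of bacterial L19, is annotated with a transcript of 5000 bases and read 746, 879 and 801 against 533, 534 and 555. Its log2 fold change of -0.58 moved to -0.66 with the transcript correction and to -0.43 with the coding one. In every setting tried, including each line left out, 19 genes were lower.

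**Figure D4:**
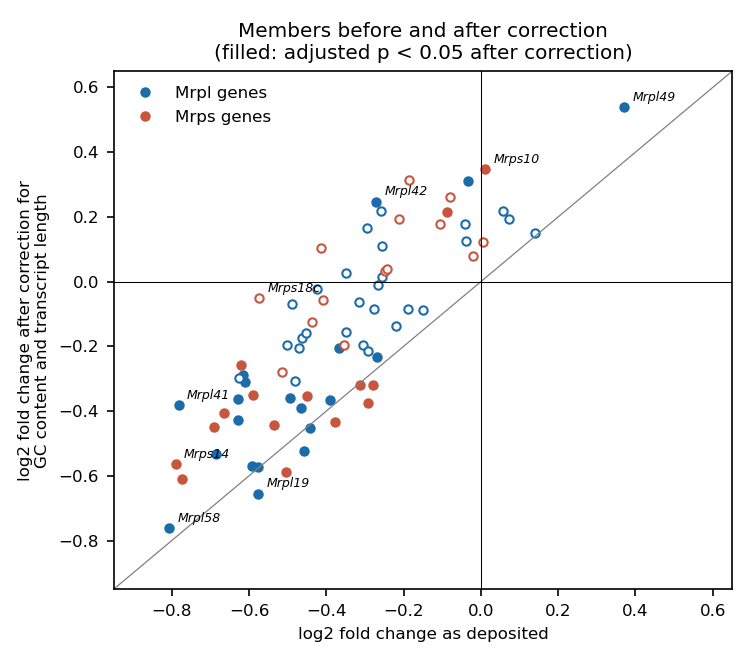
Log2 fold change of each tested gene as deposited (horizontal axis) and corrected for GC content and transcript length (vertical axis). Filled points had a limma adjusted p under 0.05 after correction, and the grey line marks equal values. Most points lie above the line, nearer to 0, and *Mrpl42* crosses from below to above 0, while *Mrpl58* and *Mrpl19* stay far below it.

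Some genes share bases with neighbours. The Smart-Seq2 protocol does not mark strand, so reads from overlapping genes on opposite strands cannot be told apart by it. For 22 of the 77 genes, exons overlapped those of another listed gene, and 17 of the 21 tested fell, whereas 34 of the 45 with no overlap fell (medians -0.47 and -0.35). *Mrps34* shares 63.4% of its exon bases with *Mapk8ip3* and *Mrps25* 69.8% with *Nr2c2*, both on the opposite strand. *Mrps34* also shares 763 bases (37.0%) with *Nme3* on the same strand, which was listed at 0 in every line, so its value is uncertain. *Mapk8ip3* was at 63, 65 and 59 against 61, 66 and 107, and *Mrps25* fell from 360, 381 and 367 to 274, 239 and 268. *Mrpl44* shares 126 bases (7.7%) with *Wdfy1*, which rose from 15, 17 and 22 to 198, 169 and 181. *Mrpl44* itself was lower, with 178, 237 and 216 against 118, 133 and 156 (log2 fold change -0.63 ± 0.15). *Mrpl46* and *Mrps11*, both lower, share 173 bases with each other. *Mrpl19*, named above for its long transcript, shares 1962 bases (36.0%) with *Gcfc2* on the opposite strand, so its value is uncertain too.

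RefSeq promoter windows of 300 bases, from 250 before to 50 after the start (GRCm38.p6), were found by symbol for 68 of the 77 genes, in 74 windows. The windows were rich in CpG, the site at which DNA is methylated, with a median of 21.5 CpG, close to the 21 in windows of all genes tested and above the 7 in all 32851 windows. Letters of 4 factors that bind promoters of nuclear genes for mitochondria were sought on both strands. CCGGAAG, the core bound by ETS factors such as GABPA, was in 33.8% of the family's windows, 19.0% of those of genes tested and 8.86% of all. AAGATGGC, the core bound by YY1, was in 16.2%, 4.82% and 2.75%. CGCATGCG, the core of the NRF1 site, was in 9.46%, 4.27% and 1.87%, and CACGTG, bound by MYC, in 9.46%, 10.5% and 7.15%. These motifs do not contain one another. In the 56 windows of genes that fell, CCGGAAG was in 35.7%, AAGATGGC in 16.1%, CGCATGCG in 5.36% and CACGTG in 12.5%. In the 17 windows of tested genes that did not fall these shares were 23.5%, 17.6%, 23.5% and 0%. The 56 windows belong to 50 genes and the 17 to 17, so only genes that fell were counted more than once. Among them, overlapping windows of *Mrpl2* all hold CACGTG. No test was made, and a match of letters is not a bound site.

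The annotated exon-free bases before the start are shown for 3 genes that fell, for *Mrpl34*, which did not, and for *Mrpl49*, which rose, to set side by side sequences with and without the ETS letters. Capitals mark matches to the 4 motifs, each sequence runs 5′ to 3′ on the gene's own strand, and coordinates are those of GRCm38.p6. *Mrpl58* (chr11:115403502-115403751, plus strand), *Mrps22* (chr9:98601680-98601929, minus strand) and *Mrpl34* (chr8:71464676-71464925, plus strand) each hold CCGGAAG. *Mrps14* (chr1:160194965-160195214, plus strand) holds none of the 4. For *Mrpl49* (chr19:6057786-6057843, minus strand) only 58 bases lie between exons, ending 30 bases before the RefSeq start. They hold none, and the AAGATGGC in its window lies outside them.
Mrpl58: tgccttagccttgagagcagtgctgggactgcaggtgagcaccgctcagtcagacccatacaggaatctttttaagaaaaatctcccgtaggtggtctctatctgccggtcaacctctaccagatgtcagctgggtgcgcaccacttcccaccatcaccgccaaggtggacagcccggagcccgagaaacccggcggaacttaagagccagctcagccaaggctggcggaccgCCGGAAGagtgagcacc
Mrps14: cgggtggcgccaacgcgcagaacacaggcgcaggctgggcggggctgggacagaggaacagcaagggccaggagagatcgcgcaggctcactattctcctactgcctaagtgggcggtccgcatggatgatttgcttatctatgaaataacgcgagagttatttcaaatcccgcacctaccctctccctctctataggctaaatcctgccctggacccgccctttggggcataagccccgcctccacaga
Mrps22: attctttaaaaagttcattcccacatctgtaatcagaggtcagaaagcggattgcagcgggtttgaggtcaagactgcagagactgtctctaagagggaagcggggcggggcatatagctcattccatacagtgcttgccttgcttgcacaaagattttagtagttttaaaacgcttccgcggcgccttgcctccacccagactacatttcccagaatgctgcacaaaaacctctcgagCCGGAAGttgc
Mrpl34: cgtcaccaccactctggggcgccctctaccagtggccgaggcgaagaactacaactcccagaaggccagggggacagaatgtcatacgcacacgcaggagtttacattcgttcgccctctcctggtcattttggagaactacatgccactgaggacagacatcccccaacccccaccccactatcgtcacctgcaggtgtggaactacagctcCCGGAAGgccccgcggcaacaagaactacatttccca
Mrpl49: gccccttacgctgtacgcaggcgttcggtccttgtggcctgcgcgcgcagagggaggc
*Mrps22*, for a mitochondria-specific small-subunit protein, fell from 446, 467 and 465 to 298, 328 and 272 (log2 fold change -0.62 ± 0.10). *Mrpl34*, a homologue of bacterial L34, was at 381, 494 and 506 against 414, 464 and 462 (-0.03 ± 0.10, limma adjusted p = 0.825). The ETS letters stood before both of these genes, which were chosen after their values were seen. A link between the letters and the change was not tested.

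Other genes that serve mitochondrial translation were read against the same shares over all genes, 18.4% lower and 16.4% higher. The 5 mitoribosome proteins with other names all fell, led by *Chchd1*, from 750, 720 and 673 to 316, 407 and 399 (log2 fold change -0.94 ± 0.09), with *Aurkaip1* at -0.48, *Gadd45gip1* at -0.39, *Ptcd3* at -0.36 and *Dap3* at -0.26. Of 13 translation factors tested 4 fell (30.8%), namely *Mrrf*, which recycles ribosomes (-0.76), the release factor *Mtrf1* (-0.70), and the initiation and elongation factors *Mtif3* (-0.65) and *Tufm* (-0.23). The other 9 were not called. *Mtrf1* and *Mtif3* had low counts, of 29 to 95, and limma adjusted p of up to 0.299 without *Tet iTKO* line 3 and 0.165 without *Ctrl* line 1. *Tufm* was not called without *Ctrl* line 3 (0.101) or *Tet iTKO* line 3 (0.076). Of 28 assembly factors 7 fell, with *Malsu1* at -0.76 and *Fastkd2* at -0.74, and *Grsf1*, for an RNA-binding protein of mitochondrial RNA granules, rose by 0.31. Of 20 aminoacyl-tRNA synthetases and related enzymes 8 fell (40.0%), such as *Gatb* at -0.69, while *Vars2*, the valine enzyme, rose from 167, 187 and 184 to 329, 353 and 333 (0.91 ± 0.12). Corrected for GC content and transcript length, 2 translation factors, 7 assembly factors and 6 synthetases were lower and 2, 3 and 2 were higher. These counts, of 13, 28 and 20 genes, stood beside 13.3% lower and 12.5% higher among all genes after the same correction. For the translation factors, 2 lower and 2 higher of 13 was close to the shares of all genes.

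Of 16 genes for transcription and RNA processing in mitochondria, 4 were lower and 2 higher, where all genes gave 18.4% and 16.4%. The transcription elongation factor *Tefm* was lower (-0.65), as were *Slirp* (-0.54) and *Ssbp1* (-0.42), and the DNA polymerase *Polg* (0.46) and the mRNA-binding *Lrpprc* (0.22) were higher. *Slirp* was not called without *Tet iTKO* line 1 (limma adjusted p = 0.0591). Corrected for GC content and transcript length, 2 were lower and 1 higher, beside 13.3% and 12.5% of all genes. *Tefm* (-0.30), *Slirp* (-0.37), *Polg* (0.09) and *Lrpprc* (0.18) were then not called. *Tfam*, which packages mitochondrial DNA, was at 381, 322 and 283 against 316, 328 and 295, and the RNA polymerase *Polrmt* at 269, 351 and 302 against 298, 288 and 287, with overlapping lines in both. *Polrmt* was lower after that correction (-0.48, limma adjusted p = 0.000638). Of 10 nuclear regulators of mitochondrial genes tested, 0 were lower and 2 higher as deposited, and 1 was lower after either correction. Over all genes, 13.3% were lower after the transcript length correction and 14.2% after the coding length one. *Nrf1* was at 492, 519 and 527 against 496, 457 and 493, *Gabpa* at 242, 213 and 233 against 263, 269 and 263, *Yy1* at 167, 151 and 157 against 131, 140 and 117, and *Myc* at 243, 263 and 296 against 277, 297 and 298. As deposited none of these 4 was called, with limma adjusted p of 0.447, 0.156, 0.131 and 0.414. *Yy1* was lower after the transcript length correction (-0.53, limma adjusted p = 0.0073) and *Gabpa* higher after the coding length one (0.34, 0.0196). The coactivator *Ppargc1b* rose from 5, 35 and 14 to 55, 51 and 68, its relative *Pprc1* rose by 0.22 on the log2 scale but was lower with the coding length correction (-0.21, limma adjusted p = 0.0109), and *Ppargc1a* was listed at 0 in every line.

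None of the mRNAs that the mitochondrial ribosome translates was called lower. Of the 13, 7 were abundant enough to test and 4 of these rose, with log2 fold changes from 0.10 (*mt-Cytb*) to 0.34 (*mt-Nd6*). Among all genes tested, 16.4% were higher and 18.4% lower. *mt-Co1* was at 30200, 32163 and 31057 against 35031, 34226 and 35141. *mt-Cytb* and *mt-Nd5* were called only with certain lines present, since their adjusted p reached 0.258 without *Tet iTKO* line 3 and 0.294 without *Tet iTKO* line 1. The other 6, *mt-Co2* and *mt-Atp6* among them, were listed at 0 or 1 in every line. Reads that align to several places were not kept upstream, and the levels of these 6 cannot be read from the values. Corrected for GC content and transcript length, all 7 tested were higher, beside 12.5% of all genes. Their median log2 fold change was 0.10 as deposited, 0.54 after this correction and 0.30 after the coding length one, so its size depended on the correction.

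The families most like this one in size moved in the same direction. Of 95 cytosolic ribosomal protein genes 78 fell and 2 rose (median log2 fold change -0.41), and of 78 nuclear genes for oxidative phosphorylation 66 fell and 0 rose (median -0.50). Corrected for GC content and transcript length, these families had 33.7% and 33.3% of genes lower, with medians of -0.07 and -0.13, beside 39.5% and -0.18 for the mitochondrial ribosomal proteins. With coding length instead, 60.0%, 56.4% and 42.1% were lower, with medians of -0.18, -0.21 and -0.22. Between these corrections the order of the families by share of lower genes changed, while their order by median did not. As deposited the order by median was another, with the mitochondrial ribosomal proteins (-0.37) the least lowered of these families. The differences between the families were not tested.

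**Figure D5:**
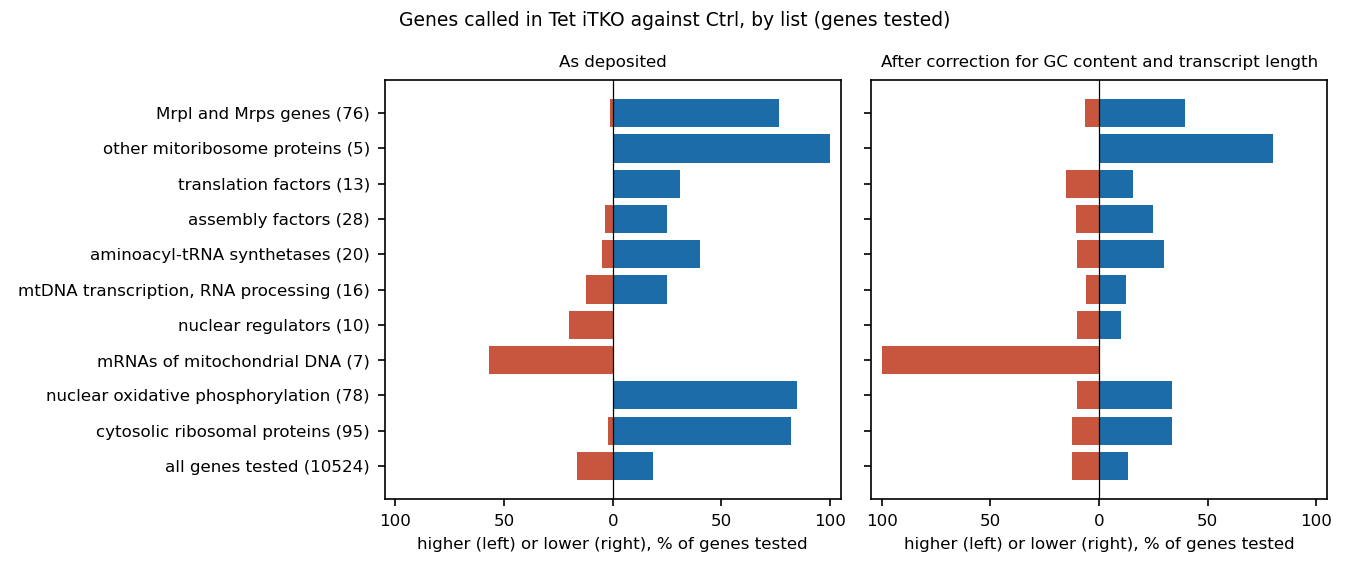
Share of the tested genes of each list called lower (blue, to the right) or higher (red, to the left) in *Tet iTKO* lines, as deposited and corrected for GC content and transcript length. The number of genes tested stands beside each name. Lower genes made up 76.3% of the family as deposited and 39.5% after correction, beside 18.4% and 13.3% of all genes.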

How the data were processed

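RNA of 6 sorted mESC lines, 3 *Ctrl* and 3 *Tet iTKO*, was sequenced after Smart-Seq2. Reads were aligned with STAR (unique alignments only) and counted with HTSeq 0.7.1 with its stranded setting, and the submitters' processing notes name mm9. The authors divided the read counts by DESeq2 1.26.0 size factors and deposited them as whole numbers, which are therefore in the unit score and not read counts, so no count model was fitted. Identifiers were matched without version to GENCODE M21 (GRCm38), which gave 20775 of 22380 a symbol, and gave biotype, exon overlap, GC content and lengths (the principal coding transcript, the longest in ties). Because the builds may differ, these lengths are approximate.

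Genes with a mean of at least 10 were tested with limma 3.58.1 (R 4.3.3, trend of variance on expression) on log2(value + 1), with Benjamini-Hochberg adjustment over 10524 genes. Fold changes on this scale understate those of low genes. An exact permutation test of 3 lines against 3 cannot give a p under 0.1. The correction fitted each library's deviations from the gene means by loess (span 0.3) on GC content and the log2 of length. The fit used no replicate block, and same-numbered lines did not deviate together. The members and lists were chosen with earlier results of these data known. Genes named are the 8 largest falls and all rises among called genes whose mean reached 50 and whose groups kept apart, the genes of each ribosomal place, up to 4 of the largest called changes in each other list with 7 fixed regulators and factors, the untested member and the *Tet* genes. *Mrpl15*, *Mrpl19*, *Mrpl34*, *Mrpl42*, *Mrpl44*, *Mrps10*, *Mrps15*, *Mrps22*, *Mrps25*, *Mrps36*, *Grsf1*, *Lrpprc*, *Dap3*, the markers, the ends of ranges and genes overlapping members were chosen after their values were seen. The fit was tested on simulated data. Tables used Python 3.11.15 and pandas 2.3.3.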

Additional observations from a re-analysis of the deposited data

How the results depend on the processing

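Pseudocounts of 0.5 and 4, minimum means above 0 or of 50 and TMM rescaling left 55 to 59 of the genes lower and *Mrpl49* the only one higher. Quantile normalization gave 45 lower and 2 higher (median log2 fold change -0.30), and limma without the trend of variance 33 lower and 0 higher. Corrections with transcript, coding or longest-transcript length, of which the coding and longest-transcript ones were chosen after seeing the data, gave 30, 32 and 34 lower and 5, 1 and 3 higher, with medians of -0.18, -0.22 and -0.21. Minus the median of genes of like transcript length, the family's median was -0.33 as reported. It was -0.30 with a minimum mean of 50, -0.26 with quantile normalization and -0.19, -0.20 and -0.22 with those corrections. The genes of like transcript length were still longer, with a median of 2408 bases against 1324 for the family. Weighted to the family's spread over 6 length classes, the class medians as deposited averaged -0.38 for the family and -0.16 for other genes. Each line left out in turn gave 49 to 55 lower genes, 1 higher, medians of -0.38 to -0.35 and -0.35 to -0.31 minus genes of like length.

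Same-numbered lines did not deviate together (correlations of -0.0054 to 0.0007 over 10524 genes), and the main fit used no block. Such correlations cannot tell whether same-numbered lines were handled together. The paper describes these data as coming from independent experiments. A replicate block gave 59 lower and 1 higher and turned no sign, and with the transcript length correction the block gave 30 lower, 5 higher, medians of -0.18 and -0.19 and the same log2 fold changes as the correction without the block.

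The log2 fold changes of some named genes turned sign, and the cause was not tested. Among them *Mrpl22*, *Mrpl42*, *Mrps12* and *Mrps18a* had been called lower as deposited (-0.30, -0.27, -0.24 and -0.25). With transcript length the genes that turned were *Mrpl22* 0.17, *Mrpl34* 0.31, *Mrpl42* 0.25, *Mrps12* 0.040, *Mrps15* 0.22, *Mrps18a* 0.032, *Mrps18b* 0.18, *Mrps30* 0.079, *Pprc1* -0.12 and *Tet2* -0.042. With coding length they were *Mrpl34* 0.22, *Mrpl42* 0.045, *Mrps15* 0.010, *Mrps18b* 0.012, *Mrps30* 0.080, *Myc* -0.013, *Pprc1* -0.21, *Tet2* -0.052 and *Tfam* 0.15. With the longest transcript they were *Mrpl22* 0.20, *Mrpl34* 0.33, *Mrps12* 0.047, *Mrps15* 0.17, *Mrps18b* 0.21, *Mrps30* 0.13, *Pprc1* -0.10, *Tet1* -0.017 and *Tet2* -0.056. Quantile normalization turned *Mrpl34* 0.052 and *Mrps30* 0.035, and TMM rescaling *Mrps10* -0.011 and *Mrps2* -0.015. Leaving out single lines gave ranges across 0 for *Mrpl10* -0.0025 to 0.20, *Mrpl34* -0.16 to 0.040, *Mrps10* -0.059 to 0.048, *Mrps18b* -0.19 to 0.0064, *Mrps2* -0.026 to 0.060, *Mrps30* -0.12 to 0.052, *Polrmt* -0.16 to 0.030, *Tet2* -0.019 to 0.26 and *Tfam* -0.16 to 0.051. The 3 lines per group and the rounding to whole numbers limit what can be told of genes with low counts.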
